A study of Mus musculus with 6 samples.

Results

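Translation factors are the proteins that start and drive protein synthesis on the ribosome, and their transcripts were measured here in mouse spinal cord with and without Dhtkd1. The members were all genes whose name on the array is Eif (eukaryotic initiation factor) or Eef (eukaryotic elongation factor) followed by a digit. The rule took 65 of the 21441 genes tested and 150 of the 41174 probes on the array. It also took 4 genes listed on the array as Eif2c, an older name of the Argonaute genes Ago1 to Ago4, which bind small RNAs and are not translation factors in the narrow sense. The groups were 3 wild-type and 3 Dhtkd1 null samples of spinal cord from male C57BL/6 mice aged 8 weeks. Dhtkd1 encodes the E1 subunit of a mitochondrial 2-oxoacid dehydrogenase in lysine breakdown, and the labels give the allele only as null. The sample titles carry a separate number each, without saying what it stands for. The labels do not say whether each sample came from its own mouse, so the p-values measure the spread between these samples, which may be technical.

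In each round of initiation, eIF2 carries the initiator tRNA to the small ribosomal subunit, eIF3 holds the complex together, and the eIF4 proteins bring in the capped mRNA. eIF2 must be recharged by the exchange factor eIF2B, and stress kinases that phosphorylate eIF2 block this step and lower protein synthesis throughout the cell. In the nervous system this control is known from its part in memory and from the white matter disease caused by mutations of eIF2B. Elongation then uses eEF1 to deliver each charged tRNA and eEF2 to move the ribosome along.

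The values are log2 processed signals minus the 75th percentile of the same array, so 0 stands for the signal at that percentile. It lay between 950 and 1055 intensity units, and the share of spots above background was 78.4% at the lowest and 82.0% at the highest. The 2 Dhtkd1 probes read -3.05 to -2.42 in wild-type and -4.30 to -3.39 in null samples, with differences of -1.08 and -1.07 on the log2 scale, and both stayed above background on all 6 arrays. Slide 1 held wild-type 2 and all 3 null samples, and slide 2 held wild-type 1 and wild-type 3. Markers of neighbouring tissue differed between arrays of one group, with the mean of the 5 adipocyte markers between -1.60 and 1.22 in wild-type and between -0.61 and 2.12 in null samples, each gene taken relative to its own mean over the 6 arrays. The 4 Schwann cell markers ran from -0.69 to 2.29 in wild-type and from -1.65 to 0.09 in null samples. The defining neuron and oligodendrocyte markers of spinal cord were measured on every array. In bulk tissue, fewer cells of a type and less RNA per cell cannot be told apart.

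All 65 members had a signal well above background on all 6 arrays, and 52 of them had a mean signal of 0 or more. No member passed an adjusted p of 0.05 in limma with Benjamini-Hochberg adjustment over all genes, where 0 of 21441 genes (0%) did. The lowest adjusted p of a member was 0.517. At an unadjusted p under 0.05, 0 of 65 members had a higher and 1 of 65 a lower mean in null samples, against 5.76% and 3.25% of all genes. Eif2ak2 was that member. The 3 null values lay all above the wild-type values for 4 members and all below them for 7, against 9.18% and 5.63% of all genes. The 4 were Eif1a, Eif4e3, Eef1d and Ago3, and the 7 were Eif2ak2, Eif2ak4, Eif2a, Eif2d, Eif3f, Eif4a1 and Eif4ebp3.

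The differences of the translation factors were small. Their median was -0.01 on the log2 scale, beside 0.02 over all genes, and the median size without sign was 0.06 beside 0.11. Among genes with a mean signal of 0 or more, the median size was 0.05 for the 52 members and 0.07 for all 8234 genes. Only 3 of 65 members (4.62%) had a difference over 0.2 in size, which 30.3% of all genes had. Among the brighter genes, 0 of the 52 members and 14.2% of the 8234 genes had one. The 3 were Eif2ak2, Eif4ebp1 and Eif2a, all with a mean signal below 0. The 95% interval of limma lay within 0.5 of 0 on both sides for 58 of 65 members, and 49 differences were smaller than their own SE. The SE had a median of 0.08 and a range of 0.06 to 0.26.

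The mean was lower in null samples for 37 members and higher for 28, and 45.5% of all genes had a lower mean. This split rested on the scaling and on single arrays. It was 49 lower with arrays centred on their median, 51 lower with slide as a fixed block, and 28 lower without wild-type 2, while slide as a random block left it at 37. Since slide 2 holds wild-type arrays only, the fixed block compares wild-type 2 alone with the 3 null arrays and gives the same differences as slide 1 by itself. The mean over all members, each relative to its own 6-array mean, was -0.02, 0.05 and -0.02 on the wild-type arrays and 0.02, -0.01 and -0.02 on the null arrays. Wild-type 2 was thus the highest array of both groups, and the other 5 lay within 0.05 of each other.

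**Figure D1:**
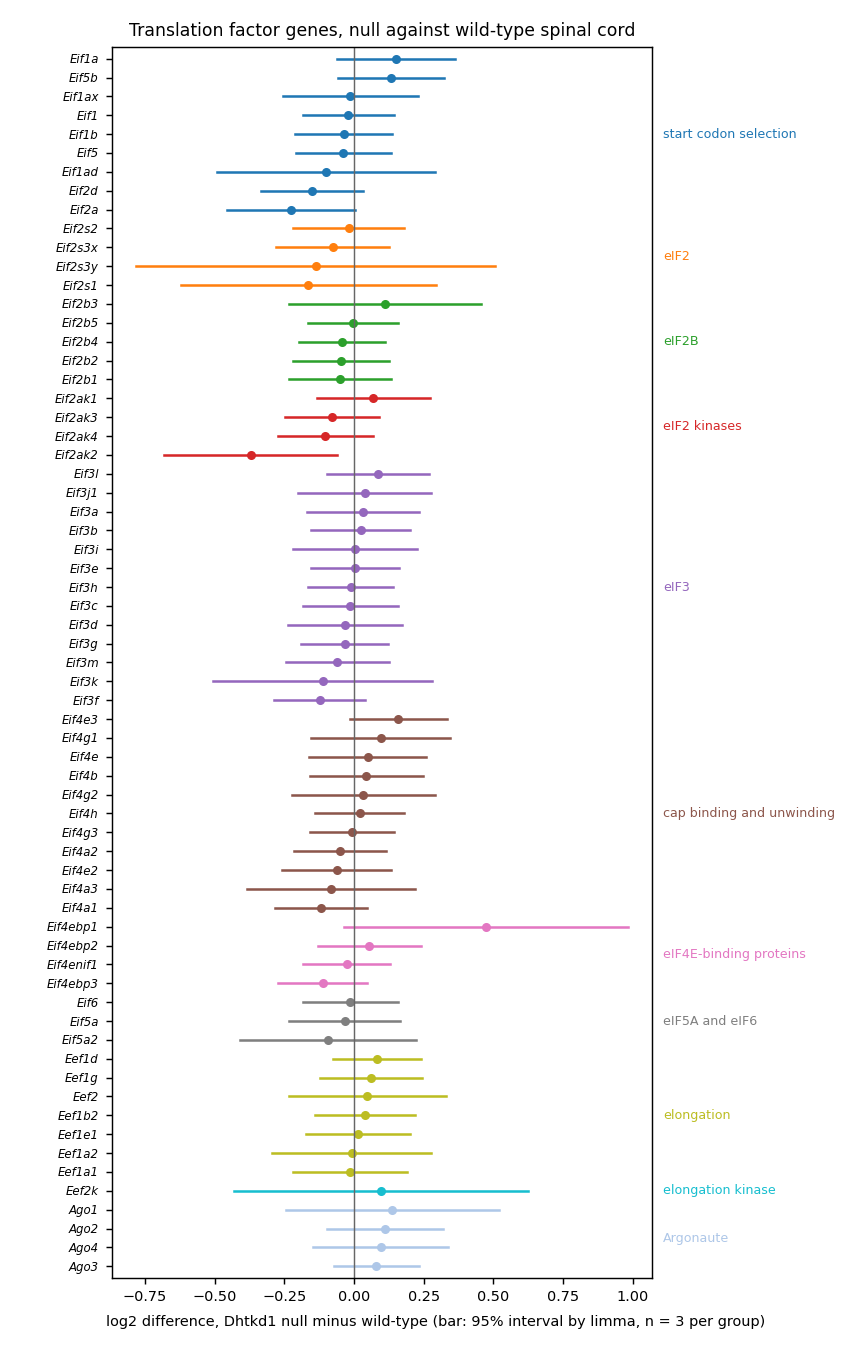
Log2 difference of each of the 65 members, null minus wild-type, with its 95% interval by limma (3 samples per group), ordered by role. The points lie between -0.37 (Eif2ak2) and 0.47 (Eif4ebp1), and the interval of Eif2ak2 is the only one that leaves out 0.

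The eIF2 kinases are stress sensors that switch initiation off. Eif2ak2 encodes PKR, the kinase activated by double-stranded RNA and itself induced by interferon. Its single probe, at chr17:79252168-79252227 of mm9 on the minus strand, read -1.29, -1.21 and -1.35 in wild-type and -1.46, -1.90 and -1.60 in null samples. The 3 null arrays lay below the 3 wild-type arrays, with null 1 nearest to them and null 2 farthest. The difference was -0.37 (SE 0.13, 95% interval -0.68 to -0.06), a 1.29-fold lower mean, with an unadjusted p of 0.0268 and an adjusted p of 0.517 by limma. The exact 2-sided permutation test gave 0.1, the smallest p that 3 against 3 samples can reach. The sign held in all 19 other settings, from -0.47 to -0.25, and the unadjusted p stayed under 0.05 in 13 of them. With slide as a random block the difference was -0.37 with an unadjusted p of 0.0271. With slide as a fixed block, which rests on wild-type 2 alone, it was -0.44 with an unadjusted p of 0.0684. The unadjusted p rose above 0.05 without wild-type 1 (0.061), without wild-type 2 (0.0776) and without null 3 (0.0506).

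The other 3 kinases had smaller differences. Eif2ak4 encodes GCN2, the sensor of uncharged tRNA, and its values of -0.52, -0.50 and -0.52 in wild-type and -0.53, -0.65 and -0.67 in null samples did not overlap. Null 1 missed the wild-type range by under 0.01, and the difference was -0.10 (SE 0.07, unadjusted p 0.189). Eif2ak4 had 2 further probes, both dim, with differences of 0.14 and -0.37. Eif2ak3, which encodes the endoplasmic reticulum sensor PERK, differed by -0.08 (SE 0.07), with both probes lower in mean. Eif2ak1, the haem-regulated kinase, differed by 0.07 (SE 0.08), and its sign turned with slide as a fixed block but not as a random one.

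**Figure D2:**
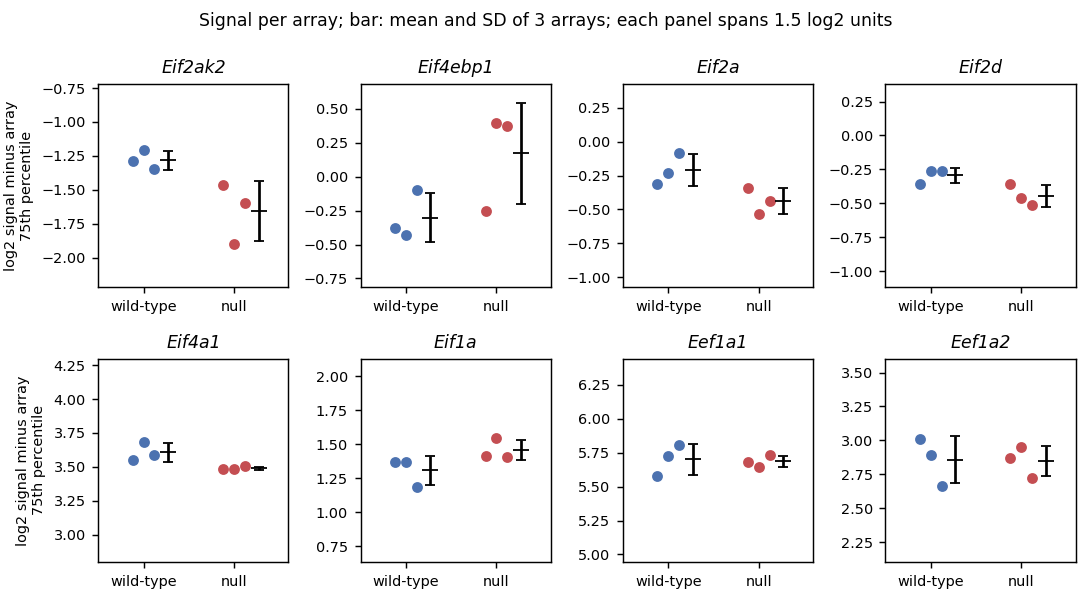
Signal of 8 members on each array (points), with the mean and SD of the 3 arrays of a group, on axes of equal span (1.5 log2 units). The groups do not overlap for Eif2ak2, Eif2a, Eif2d, Eif4a1 and Eif1a, while Eif4ebp1 has null 1 among the wild-type arrays and Eef1a1 and Eef1a2 overlap throughout.

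Because PKR is known as an interferon-induced gene, the promoters of the members were searched on both strands for 2 copies of GAAA with 2 bases of any kind between them, the core of the interferon-stimulated response element. The windows ran from 250 bases before to 50 bases after each RefSeq start (GRCm38.p6), and 52 of the 65 members had at least one. The letters were found in 4 of the 68 windows of members (5.88%) and in 3.44% of all 32851 windows. Counted by gene, that is 4 of 52 members (7.69%) and 3.99% of all 27025 genes with a window. The 30 bases around each match are shown so that they can be set beside the values, on the strand of the gene with the motif in capitals, which reads as its reverse complement where it lies on the other strand:
Eif2ak2: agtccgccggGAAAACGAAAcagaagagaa
Eif2s1: cctggagcaaGAAACAGAAActtacctctc
Eif2s3x: tgccgagcatTTTCCTTTTCtctccgagca
Eif3a: agaccgcaaaTTTCCCTTTCccactctgtg

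The Eif2ak2 stretch lies at chr17:78882535-78882564 of GRCm38.p6 (minus strand), and its motif begins 18 bases after the annotated start. That of Eif2s1 lies at chr12:78861850-78861879 (plus strand), 212 bases before the start. Eif2s3x has its match at chrX:94212636-94212665 (minus strand), 4 bases before the start, and Eif3a at chr19:60790885-60790914 (minus strand), 211 bases before it. Side by side, the differences of these 4 genes were -0.37 (Eif2ak2), -0.16 (Eif2s1), -0.08 (Eif2s3x) and 0.03 (Eif3a), and Eif2ak2 is the one whose groups did not overlap. For Eif2s1 the second probe differed by 0.105, and the brightest by 0.04 without null 1. The motif was chosen because of Eif2ak2 after the values were seen, and Eif2ak2 is counted among the 4. Neither the shares above nor the order of these differences can therefore serve as a test. A match of letters is a description of the window and was not tested as a binding site.

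The 4 subunit genes of eIF2, the carrier of the initiator tRNA, all had a lower mean in null samples (2 of 4 without null 3), and none passed the test. Eif2s1 encodes the alpha subunit that the kinases phosphorylate, and read 0.67, 0.90 and 0.81 in wild-type and 0.23, 0.84 and 0.82 in null samples. Null 1 alone lay below the wild-type range, and without it the difference moved from -0.16 (SE 0.19) to 0.04. The gamma subunit has an X-linked and a Y-linked gene. Eif2s3x differed by -0.08 (SE 0.08). Eif2s3y read 0.32, 0.64 and 0.27 in wild-type and 0.76, 0.29 and -0.23 in null samples, the widest spread among the members, with a difference of -0.14 (SE 0.26) that turned to 0.11 without null 3. The second Eif2s3x probe read 0.26, 0.55 and 0.31 in wild-type and 0.60, 0.20 and -0.24 in null samples, near Eif2s3y on each array. The third Eif2s3x probe differed by 0.09. Whether the probes of these 2 genes read a shared signal was not tested, so their lower means may not be separate. Eif2s2, the beta subunit, differed by -0.02 (SE 0.08).

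The 5 genes of eIF2B, the exchange factor that recharges eIF2, had differences from -0.05 to 0.11. Eif2b5, the catalytic epsilon subunit, read 0.63, 0.73 and 0.62 in wild-type and 0.66, 0.68 and 0.63 in null samples, a difference of 0.00 with a 95% interval of -0.17 to 0.16. The groups overlapped throughout. Eif2b1, Eif2b2 and Eif2b4, the alpha, beta and delta subunits, differed by -0.05, -0.05 and -0.04, each less than its SE of 0.06 to 0.07. Eif2b3, the gamma subunit, had a dim probe and a difference of 0.11 (SE 0.14). eIF2B held 1 higher and 4 lower means, and that balance turned to 3 higher and 2 lower without wild-type 2.

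The start codon group holds factors that place the initiator tRNA on the start codon and join the subunits, together with 2 genes that can deliver the tRNA without eIF2. It also includes Eif1ad, for which no such role is claimed here. Eif2a and Eif2d are those alternative carriers. Eif2a read -0.31, -0.23 and -0.08 in wild-type and -0.34, -0.53 and -0.44 in null samples. Null 1 missed wild-type 1 by 0.03, and the difference was -0.23 (SE 0.09, 95% interval -0.45 to 0.00), with an unadjusted p of 0.0513 and an adjusted p of 0.555 by limma. The second, dimmer Eif2a probe differed by 0.03 with overlapping groups. Eif2d read -0.36, -0.26 and -0.26 in wild-type and -0.36, -0.46 and -0.51 in null samples, with wild-type 1 and null 1 almost equal. The difference was -0.15 (SE 0.07, unadjusted p 0.0907). A second Eif2d probe gave -0.18, also without overlap, and a further, dim one gave 0.16.

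Eif1a, a scanning factor, read 1.37, 1.37 and 1.18 in wild-type and 1.42, 1.54 and 1.41 in null samples, with a difference of 0.15 (SE 0.09) and a second probe at -0.06. Eif5b, the GTPase that joins the ribosomal subunits, had 5 probes, all with a higher mean in null samples, from 0.06 to 0.16. Its brightest probe read 2.49, 2.42 and 2.47 in wild-type and 2.48, 2.66 and 2.64 in null samples, with null 1 inside the wild-type range (difference 0.13, SE 0.08). The other 5 of these 9 genes had differences from -0.10 to -0.01. One Eif1 probe differed by -0.10 with groups apart, but the file places it on chromosome 1, while the brightest Eif1 probe lies on chromosome 11 and differed by -0.02.

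eIF3 is the large scaffold of the initiation complex, and its 13 genes differed little. Their median difference was -0.01 and their range -0.12 to 0.09, with 6 higher and 7 lower means, a balance that turned to 1 higher and 12 lower with median centring. Eif3f, a regulatory subunit, read 3.09, 3.08 and 3.11 in wild-type and 3.02, 2.99 and 2.90 in null samples, without overlap. The difference was -0.12 (SE 0.07, 95% interval -0.29 to 0.04, unadjusted p 0.111). Eif3l differed by 0.09 (SE 0.07), by 0.08 with slide as a random block and by -0.01 with slide as a fixed block. Eif3a, the largest subunit, read 2.45, 2.41 and 2.47 in wild-type and 2.36, 2.59 and 2.49 in null samples, so its null samples lay on both sides of the wild-type range.

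The eIF4 genes grouped under cap binding and unwinding had 6 higher and 5 lower means, from -0.12 to 0.16. They include Eif4a3, for which no role in initiation is claimed here. Eif4e3, a variant cap-binding protein, read -0.74, -0.65 and -0.59 in wild-type and -0.53, -0.51 and -0.45 in null samples, without overlap (difference 0.16, SE 0.07, unadjusted p 0.0677). Its second probe differed by -0.05. Eif4a1, the helicase that unwinds the leader of the mRNA, read 3.55, 3.68 and 3.59 in wild-type and 3.48, 3.48 and 3.50 in null samples. The null arrays lay close together and all below the wild-type arrays, and the difference was -0.12 (SE 0.07, unadjusted p 0.13). A second Eif4a1 probe, at chr11:69480445-69480504 of mm9, gave 0.28, 0.29 and 0.42 against 0.07, 0.10 and 0.10, a difference of -0.24 with an unadjusted p of 0.0184, and the third gave 0.04 with overlap. Eif4e, the main cap-binding protein, and the scaffold Eif4g1 differed by 0.05 (SE 0.08) and 0.10 (SE 0.10).

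The eIF4E-binding proteins hold the cap-binding protein back until mTOR phosphorylates them. Eif4ebp1 had the largest difference of the members. It read -0.38, -0.43 and -0.10 in wild-type and -0.26, 0.39 and 0.38 in null samples, so null 2 and null 3 lay above all wild-type arrays and null 1 among them. The difference was 0.47 (SE 0.21, 95% interval -0.04 to 0.98), a 1.39-fold higher mean, with an unadjusted p of 0.0632 and an adjusted p of 0.57 by limma. It ranged from 0.36 to 0.69 over the other settings, the highest being without null 1. Its second probe was above background on 1 array and left out. Eif4ebp3 read 0.77, 0.78 and 0.81 in wild-type and 0.70, 0.72 and 0.62 in null samples, without overlap, a difference of -0.11 (SE 0.06) that its second probe matched at -0.09. Eif4ebp2 differed by 0.06 (SE 0.08). Eif4enif1, a transporter that carries eIF4E into the nucleus, differed by -0.03 (SE 0.06).

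Eif5a, Eif5a2 and Eif6 had lower means in null samples by 0.03, 0.09 and 0.01, each less than its SE. Eif5a and its paralogue relieve stalled ribosomes, and Eif6 keeps the large subunit from joining too early. Without wild-type 2, or without null 3, 2 of these 3 means were higher.

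The 7 elongation genes had differences from -0.01 to 0.08, and none passed the test. Eef1a1 and Eef1a2 encode the factor that brings charged tRNA to the ribosome, Eef1a2 being the form of mature neurons and muscle. Eef1a1 read 5.58, 5.72 and 5.80 in wild-type and 5.68, 5.65 and 5.73 in null samples. Eef1a2 read 3.01, 2.90 and 2.67 in wild-type and 2.87, 2.95 and 2.73 in null samples. For both, every null value lay inside the wild-type range, with differences of -0.01 (95% intervals -0.22 to 0.19 and -0.29 to 0.28). The 5 skeletal muscle markers had a mean between -1.75 and 1.22 on the same wild-type arrays.

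Eef1d, an exchange factor for eEF1A, read 4.12, 4.19 and 4.14 in wild-type and 4.22, 4.20 and 4.28 in null samples, without overlap. Null 2 exceeded wild-type 2 by under 0.01, and the difference was 0.08 (SE 0.06). A dim second Eef1d probe, with overlapping groups, differed by 0.41 at an unadjusted p of 0.039. Eef1b2 and Eef1g, its partner subunits, differed by 0.04 (SE 0.07) and 0.06 (SE 0.07). Eef1e1, a scaffold of the tRNA synthetase complex, differed by 0.01 (SE 0.08). Eef2, which moves the ribosome along, read 3.03, 3.21 and 2.91 in wild-type and 3.24, 2.96 and 3.08 in null samples, a difference of 0.05 (SE 0.11). Its kinase Eef2k, which blocks it, read -2.57, -2.15 and -2.74 in wild-type and -2.08, -2.69 and -2.41 in null samples, a difference of 0.10 (SE 0.21). The elongation group held 5 higher and 2 lower means, but 2 higher and 5 lower with median centring or with slide as a fixed block, and 5 and 2 with slide as a random block.

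All 4 Argonaute genes had higher means in null samples, with a median difference of 0.10 and a range of 0.08 to 0.14. By comparison, 45.5% of all genes had a lower mean. The sign of the 4 held in each of the 19 other settings, but these settings draw on the same arrays and are not independent of each other. Ago2, the Argonaute that cuts its targets, read 3.17, 3.02 and 2.95 in wild-type and 3.11, 3.21 and 3.15 in null samples, with overlap (difference 0.11, SE 0.08, unadjusted p 0.238). Its 4 probes had differences from 0.11 to 0.34. Ago3 read -0.35, -0.29 and -0.32 in wild-type and -0.23, -0.28 and -0.21 in null samples, without overlap (difference 0.08, SE 0.06). Of its 5 probes, 3 had a higher and 2 a lower null mean, from -0.09 to 0.18. Ago1 and Ago4 overlapped, with differences of 0.14 (SE 0.15) and 0.10 (SE 0.10). No Argonaute gene passed the test. Without them, the other 61 members had 24 higher and 37 lower means.

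Where a member had several probes, these often differed in sign. Of the 45 members with several kept probes, 21 had all of them on one side of 0 and 24 had them on both sides. The 146 kept probes of members had 76 higher and 70 lower means. At an unadjusted p under 0.05, 1 was higher and 2 lower, against 5.35% and 2.84% of all 33191 kept probes. The groups lay apart for 9 probes with a higher and 12 with a lower null mean, against 9.04% and 5.29%. Of the members with groups apart at the brightest probe, Eif4ebp3 had both probes apart on the same side, Eif2d and Eif4a1 had 2 of 3, and Ago3 had 2 of 5. Eif3c, a core subunit of eIF3, had 2 of 5 probes apart with differences of 0.20 and 0.14, while its brightest probe differed by -0.01. The widest spread between probes of opposite sign was that of Eif2ak4 (-0.37 to 0.14), followed by Eif4g2, a scaffold for initiation without the cap (-0.16 to 0.25), and Eif4e2, a cap-binding repressor (-0.34 to 0.00). The others with probes on both sides of 0 ran from Eif4a2 (-0.05 to 0.05) to Eif2d (-0.18 to 0.16) in spread. They include Eif2s1, Eif2s3x, Eif2b4, Eif2ak1, Eif3a, Eif3d, Eif3j1, Eif4b, Eif4enif1, Eif5a2, Eif6, Eef2k, Ago1 and Ago3.

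**Figure D3:**
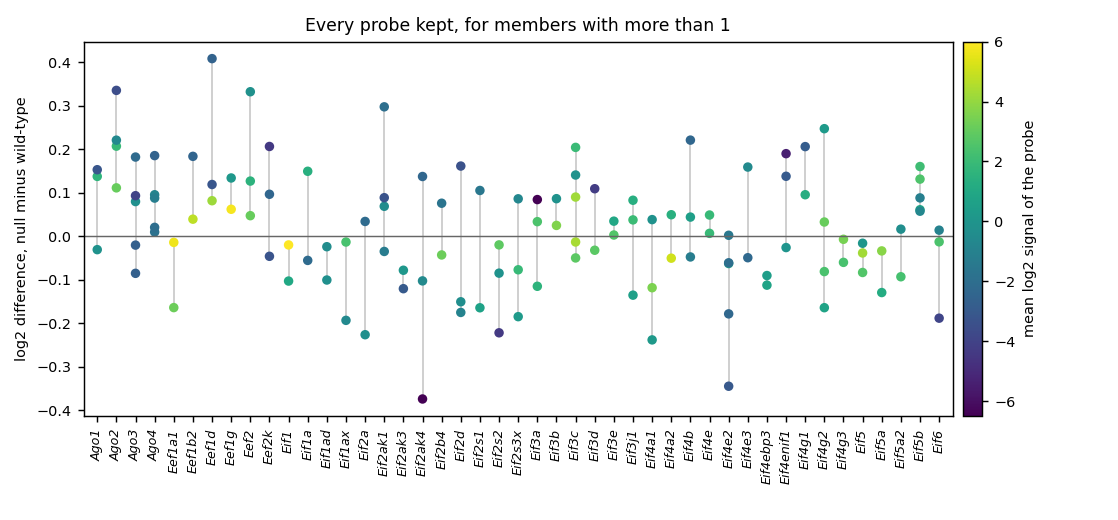
Log2 difference, null minus wild-type, of every kept probe of the 45 members with more than 1 kept probe, coloured by the mean log2 signal of the probe. All 5 Eif5b and all 4 Ago2 probes lie above 0, and 24 members have probes on both sides.

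Other parts of the translation machinery differed as little. Of 28 partner, regulatory and termination factors, 16 had a higher and 12 a lower null mean. An unadjusted p under 0.05 was reached by 0 of them, against 5.76% (higher) and 3.25% (lower) of all genes. At those shares, lists this short would hold few such genes. The groups lay apart for 2 of the 28, both with a higher null mean, where 9.18% of all genes did so. Pabpc1, the poly(A)-binding protein that joins the tail of the mRNA to eIF4G, read 4.85, 4.83 and 4.79 in wild-type and 4.89, 4.97 and 4.93 in null samples (difference 0.11, SE 0.06). Abcf1, which associates with eIF2, read 2.78, 2.80 and 2.81 against 2.86, 2.93 and 2.96 (difference 0.12, SE 0.06). The phosphatase subunits that reverse eIF2 phosphorylation, Ppp1r15a and Ppp1r15b, differed by 0.04 (SE 0.17) and -0.10 (SE 0.10). The 8 mitochondrial translation factors, which serve the ribosomes of the organelle that holds Dhtkd1, had 4 higher and 4 lower means. Their differences ranged from -0.12 to 0.10, with 0 at an unadjusted p under 0.05, against the same 5.76% and 3.25% of all genes.

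The 74 genes listed as cytosolic ribosomal proteins had 49 higher and 25 lower means, with a median difference of 0.01 and a median size of 0.03. At an unadjusted p under 0.05, 1 of them was higher and 1 lower, against 5.76% and 3.25% of all genes. The groups lay apart for 5 higher and 1 lower, against 9.18% and 5.63%. Rpl27a read 3.69, 3.69 and 3.70 in wild-type and 3.77, 3.93 and 3.96 in null samples, a difference of 0.19 (SE 0.08, unadjusted p 0.0473, adjusted p 0.547 by limma). Rps13 read 6.31, 6.26 and 6.17 in wild-type and 6.08, 5.99 and 6.01 in null samples, a difference of -0.22 (SE 0.07, unadjusted p 0.0219, adjusted p 0.509 by limma). Both had groups apart.

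**Figure D4:**
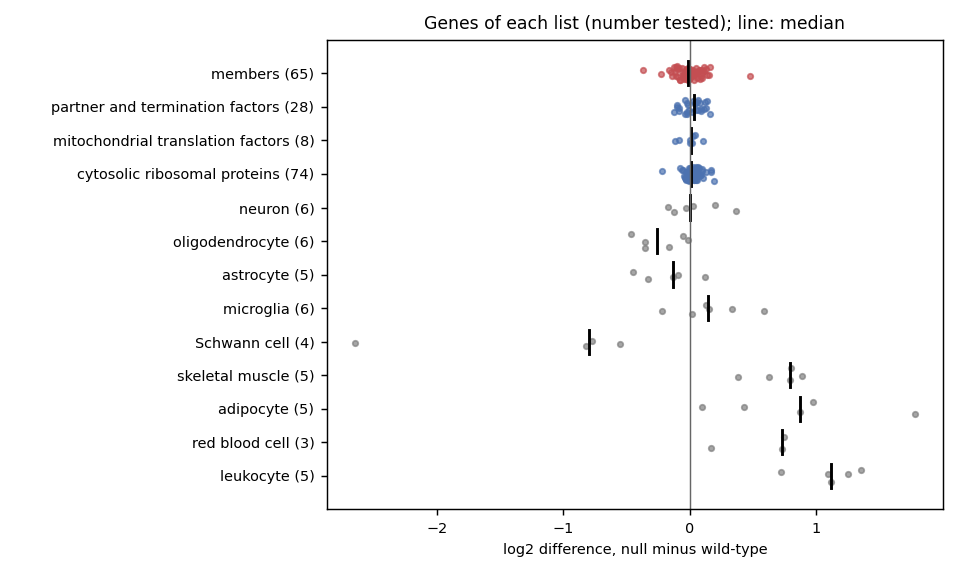
Log2 difference, null minus wild-type, of each gene in the translation lists and the marker lists (points), with the median as a line. The translation lists sit close to 0, with medians between -0.01 and 0.03, while the markers of Schwann cells, muscle, fat, blood and leukocytes reach medians between -0.79 and 1.12.

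Most marker lists had medians farther from 0 than the translation factors, but the 6 neuron markers had 3 higher and 3 lower means and a median of 0.00. The 6 oligodendrocyte markers had 6 lower means and a median difference of -0.26, and the 5 leukocyte markers had 5 higher means and a median of 1.12. All 5 leukocyte markers overlapped between the groups. Their mean on null 3, -0.72, lay inside the wild-type range of -1.15 to 0.06. The 6 microglia markers had 5 higher and 1 lower mean and a median of 0.14. Aif1 and C1qa, with differences of 0.33 and 0.59, had groups apart and an unadjusted p under 0.05, while P2ry12 differed by -0.22, and Cx3cr1, Csf1r and Tmem119 by 0.02, 0.13 and 0.15, all 4 with overlap. The part of these cell types in the differences of Eif2ak2 and Eif4ebp1 was not tested. On the null arrays Eif4ebp1 was lowest on null 1, where the adipocyte markers stood at -0.27 and the leukocyte markers at 0.90, and alike on null 2 and null 3, where the adipocyte markers stood at 2.12 and -0.61 and the leukocyte markers at 1.48 and -0.72. On null 1, null 2 and null 3 the microglia markers stood at 0.014, 0.143 and 0.094. The oligodendrocyte markers stood at 0.025, -0.213 and -0.164, and the astrocyte markers at 0.094, -0.135 and -0.225. Skeletal muscle markers stood at 0.194, 0.448 and 0.405, and Schwann cell markers at -1.651, 0.092 and -0.237. For the neuron markers these means were 0.053, 0.016 and -0.004, and for the red blood cell markers 0.544, 0.233 and 0.043. Lists therefore differed in whether they were lowest on null 1, and the wild-type arrays were not compared in this way. None of these lists was tested against Eif4ebp1.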

How the data were processed

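Total RNA was labelled with Cy3 and hybridised to Agilent 1-colour arrays (design 014868), and per the file headers the deposited intensity values are processed signals of Feature Extraction 10.7.3.1, which subtracts background, with probe positions on mm9. The deposited value table holds log2 values, each array centred near a median of 7.22 and correlated at 0.9997 or more with its scanner file, and served as an alternative; how the authors scaled it is not given in the sources used here. Outlier spots (58 to 89 per array) and control spots were left out and spots of a probe averaged. From log2 of the signal, each array's 75th percentile over these averaged probes was subtracted. A probe was kept when well above background on at least 3 of 6 arrays (33191 of 41174), and a gene took its brightest kept probe (21441 genes). All 65 members passed, and 4 of their 150 probes did not. Symbols were updated through RefSeq (GRCm38.p6): 27668 probes by accession and 464 by synonym, while 5589 were current and 7453 kept the file's name. The ribosomal list follows the symbol and so includes Rps19bp1, a binding protein.

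Null was compared with wild-type with a 2-sided moderated test (lmFit, then eBayes) of limma 3.58.1 under R 4.3.3, checked on simulated data, with Benjamini-Hochberg adjustment over all genes or all kept probes. The simulated differences were larger than that of any member, so the check does not cover differences as small as theirs. The members and lists were chosen with earlier results of these data known, so lists have counts and medians only. The genes named by rule were members at an unadjusted p under 0.05 or with groups apart, and the 2 of smallest p in each role. The rule also took every gene of eIF2, eIF2B, the kinases, the eIF4E-binding proteins and elongation, and members with kept probes of opposite sign. Other pathway genes were taken at an unadjusted p under 0.05. Eif5b, Eif1, Eif4e, Pabpc1, Abcf1, Ppp1r15a, Ppp1r15b and the microglia markers were named after their values were seen, and the promoter motif was chosen then too. Eif4g1, Ago4 and the methyltransferases of elongation factors also fall outside the rule and were not set in advance. The alternatives were 19: other scalings, background correction, filters and probe rules, slide or replicate as a block, and each sample left out. The 6 arrays limit the precision.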

Additional observations from a re-analysis of the deposited data

How the results depend on the processing

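No member passed an adjusted p of 0.05 in any of the 19 alternatives. Over the 874 pairs of an alternative and a member named by rule (46 members), 2 turned a difference larger than its SE. These were Eif3l at -0.009013 with slide as a fixed block and within slide 1, which are the same comparison. Differences smaller than their SE changed sign more often, and Eef1a2, Eef2 and Eif3j1 each kept their sign in 14 of 19 alternatives. The number of members at an unadjusted p under 0.05 was 1 higher under normexp background correction, the replicate block, the mean of kept probes and trend with robust fitting, and 2 lower under normexp, the filter on all 6 arrays and trend with robust fitting. It was 0 lower with slide as a fixed block, within slide 1 and with the replicate block. Leaving out each sample gave 0 to 1 higher and 0 to 2 lower; without wild-type 2 or null 3 it was 0 lower, and without null 1 it was 1 higher (Eif4ebp1) and 2 lower (Eif2ak2 and Eif2a), and without wild-type 3 it was 1 higher (Eif4e3). The median difference was -0.06195 with median centring, beside -0.03184 over all genes in that setting. Members with a lower mean numbered 28 to 40 over the left-out samples. Groups lay apart for 0 members higher and 9 lower with median centring, and for 2 higher and 5 lower with the mean of kept probes. With 1 sample left out, where separation is easier to reach, they lay apart for 5 to 8 higher and 7 to 15 lower. The shares of all genes in these settings are not given here, and those of the main analysis do not apply. The counts of each setting, at an unadjusted p under 0.05 or with groups apart, thus cannot be read as above or below the background. Replicate numbers did not pair the samples: same-numbered samples' deviations correlated at -0.0159, -0.106 and 0.329, and of these only number 3 correlated best with its own number, so the replicate block (1 higher, 0 lower) is given for completeness. The cause of these changes was not tested.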

Other observations

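The enzymes that methylate elongation factors are a further group of translation genes. Of the 5 measured, 2 had a higher and 3 a lower mean in null samples, and none passed the test of limma. The groups lay apart for 2 of the 5, both with a lower null mean, where 5.63% of all genes did so. Eef1akmt1, Eef1aknmt and Eef1akmt4 overlapped, with differences of 0.08, -0.09 and 0.08. The 2 with groups apart are described next. Eef2kmt, which methylates eEF2, read -2.39, -2.23 and -2.30 in wild-type and -2.49, -2.48 and -2.42 in null samples, without overlap, with a difference of -0.16 (SE 0.07, unadjusted p 0.0734, adjusted p 0.585 by limma). Eef1akmt2, which methylates eEF1A, read 1.00, 0.96 and 0.97 in wild-type and 0.95, 0.89 and 0.83 in null samples, also without overlap, with a difference of -0.09 (SE 0.07). The genes of the factors that they modify, Eef2 and Eef1a1, differed by 0.05 and -0.01.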
